A study of Camellia sinensis with 12 samples.

Results

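Yinghong 9 and Qingxin 1 are the conventional tea varieties of a study of 4 tea genotypes, all labelled Camellia sinensis, the tea plant. The comparison used 6 of the 12 leaf libraries of the study, 3 of Yinghong 9 and 3 of Qingxin 1. They were chosen by the genotype label, Yinghong9 or Qingxin1. The other 6 libraries belong to Kucha-6 and Kucha-11, tea genotypes of the kind the study's title links to a high content of the purine alkaloid theacrine, and they serve here only to place the levels of single features. All plants grew in the same tea germplasm bank and none was treated. The labels give no leaf age and no harvest date, and they do not say whether the 3 libraries of a variety came from separate plants, so a p-value measures the spread between libraries, which may be technical.

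Tea varieties are kept as clones by cuttings, so the plants of a variety share a genome, and leaf RNA of different varieties can differ both in how strongly a gene is transcribed and in whether the gene is present or intact. Yinghong 9 is grown in Guangdong for black tea. Tea leaves are known for catechins, theanine and the purine alkaloid caffeine. The tables hold 33932 annotated genes, with TEA identifiers, and 8772 unannotated transcribed loci, with XLOC identifiers. No names accompany the identifiers, and 0 of them were found among the 80110 genes of the RefSeq table, so no function, pathway or leaf marker could be assigned or checked. No genome was at hand from which to read a sequence. Levels are FPKM, the fragments of a feature scaled by its length and by how many fragments were mapped in all.

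The summed FPKM of a library was 609588 to 633857 in Yinghong 9 and 635896 to 653908 in Qingxin 1. The number of mapped fragments is not in the files. Low FPKM values step in whole multiples of what 1 fragment is worth, and the commonest ratio to Qingxin 1 replicate 1 put the depth at 1.12, 1.18 and 1.32 times that library for Yinghong 9 replicates 1, 2 and 3, against 0.946 and 0.758 times for Qingxin 1 replicates 2 and 3. The step can also be smaller by a whole factor. At 0.5 of the commonest ratio, which some features gave in every library, the depth would be 2.23, 2.36 and 2.64 times for the Yinghong 9 replicates and 1.89 and 1.52 times for Qingxin 1 replicates 2 and 3. Features listed at 0 numbered 7691, 9061 and 8989 in the Yinghong 9 libraries, against 9685, 10425 and 9737 in the Qingxin 1 libraries. If every library is read at the same ratio, each Yinghong 9 library was deeper than each Qingxin 1 library. The Yinghong 9 libraries also listed fewer features at 0. The factor can differ between libraries, so the order in depth is not certain, and the part of depth in the results below was not tested. The libraries of a variety resembled each other closely: across the tested features their Pearson correlations were 0.981 to 0.987 within Yinghong 9 and 0.979 to 0.982 within Qingxin 1, against 0.791 to 0.811 between the varieties.

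The first question was how far the leaf transcriptomes of the conventional varieties differed. On the deposited scale, most tested features had an adjusted p below 0.05, and a minority also passed the fold threshold. Of the 27029 features tested, which reached 1 FPKM in 3 or more of the 6 libraries, 6832 (25.3%) were called, 4209 of them (15.6%) higher and 2623 (9.70%) lower in Yinghong 9 than in Qingxin 1. A call required an adjusted p below 0.05 (limma on log2(FPKM + 1), Benjamini-Hochberg over all tested features) and a log2 difference of at least 1 in size. Another 9507 features passed the adjusted p with a smaller difference. This number and the overlap given next are for the deposited scale only, where the median log2 difference was 0.18 in favour of Yinghong 9. The 3 Yinghong 9 libraries did not overlap the 3 Qingxin 1 libraries in 17875 features, or 66.1% of those tested, so a lack of overlap alone sets few features apart here. Of the called features, 4191 higher and 2615 lower ones did not overlap.

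The split between higher and lower features differed between scalings. Over all tested features, the median log2 difference was 0.18 in favour of Yinghong 9, with medians of 0.17 for annotated genes and 0.27 for unannotated loci. Scaling by a trimmed mean of M-values (TMM) brought the median over all features to 0.003, and the called features then split into 3431 higher and 3228 lower. Quantile normalization, which forces equal distributions, gave 3294 and 3246. The share of higher features was thus 61.6% on the deposited scale, 51.5% with TMM and 50.4% with quantile normalization. Both scalings centre the differences, so an even split under them does not show where the excess on the deposited scale comes from. The number of called features moved less, to 6659 and 6540, and 6054 and 5873 of these were among the 6832.

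Most called differences were moderate. The median log2 difference was 1.51 among higher features and -1.57 among lower ones. Differences between 1 and 2 were found in 3107 higher and 1823 lower features. A size of at least 5 on the log2 scale was reached by 52 features (0.192% of those tested), 16 of them higher, with 14 annotated genes and 2 unannotated loci, and 36 lower, with 30 annotated genes and 6 unannotated loci. Many differences were graded. Among higher features, Qingxin 1 averaged 1 to 10 FPKM in 1731 (41.1%) and more in 704 (16.7%), and among lower features, Yinghong 9 averaged 1 to 10 FPKM in 937 (35.7%) and more in 518 (19.7%). In 566 higher features (13.4%) Qingxin 1 averaged under 0.1 FPKM, and in 526 lower features (20.1%) Yinghong 9 did.

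**Figure D1:**
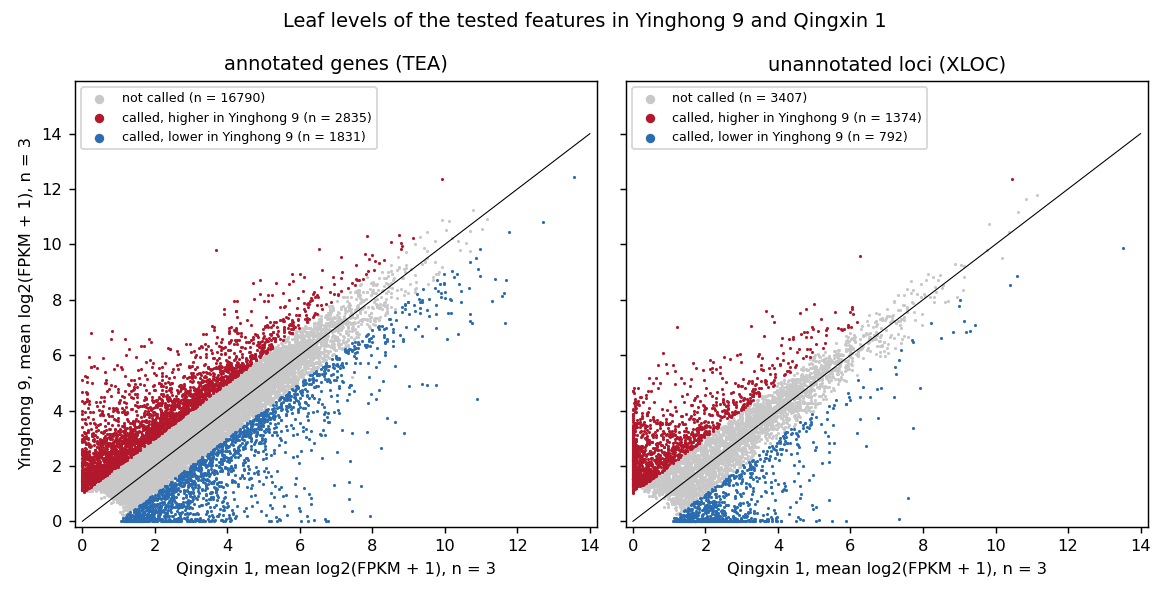
Mean log2(FPKM + 1) of the 3 Yinghong 9 libraries (vertical axis) against that of the 3 Qingxin 1 libraries (horizontal axis), 1 point per tested feature, annotated genes on the left and unannotated loci on the right. Red points are the 2835 annotated and 1374 unannotated features called higher in Yinghong 9, blue points the 1831 and 792 called lower, and the line marks equal levels.

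Unannotated loci differed more often than annotated genes. Of 5573 tested unannotated loci, 2166 (38.9%) were called, 1374 higher and 792 lower in Yinghong 9. Of 21456 tested annotated genes, 4666 (21.7%) were called, 2835 higher and 1831 lower. The share among unannotated loci was 1.79 times that among annotated genes, and 1.62 to 2.04 times under the alternatives of scaling, filter, test and left-out libraries. With TMM scaling and with quantile normalization the higher features were still the more numerous among unannotated loci (1208 against 898, and 1147 against 928), while among annotated genes the lower ones became so (2223 against 2330, and 2147 against 2318). Called unannotated loci were shorter in genomic span, with medians of 3056 bp for higher and 2922 bp for lower loci against 4160 bp for loci not called. These are counts over features, which are not replicates, and no test was made of them. The share called also varied with the mean level over both varieties. It was 53.1% under 1 FPKM, 28.1% from 1 to 10, 18.7% from 10 to 100 and 33.3% at 100 FPKM or more. Features with a mean under 1 FPKM passed the filter only if 3 libraries reached 1 FPKM while others lay lower. The filter thus favours features that differ there, and the 53.1% follows in part from it. The classes were not matched for level.

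On the deposited scale, the balance turned round among abundant features. Where the mean over both varieties was 100 FPKM or more, 33.3% of 906 tested features were called, 120 higher and 182 lower in Yinghong 9. Lower features were in the majority there with TMM scaling (90 higher, 226 lower) and with quantile normalization (137 higher, 161 lower) as well. Between 10 and 100 FPKM the split was 1248 higher and 717 lower, against 928 and 965 with TMM scaling and 970 and 913 with quantile normalization. Under 1 FPKM it was 217 and 162, against 193 and 178 with TMM scaling and 152 and 192 with quantile normalization. Under quantile normalization a majority of lower features was thus not particular to abundant ones. Features called lower held 8.11% ± 0.24 of the summed FPKM in Yinghong 9 and 30.1% ± 0.83 in Qingxin 1 (SD, n = 3 each). Features called higher held 20.4% ± 0.26 in Yinghong 9 and 5.42% ± 0.20 in Qingxin 1. These shares describe sets that were picked for their difference.

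The Qingxin 1 libraries held more of their summed FPKM in few features. The 10 most abundant features of a library took 5.35%, 5.51% and 5.30% of the summed FPKM in Yinghong 9, against 7.79%, 8.31% and 8.21% in Qingxin 1. The groups did not overlap (difference of means -2.72 percentage points, exact permutation test, two-sided, p = 0.1, the smallest that 3 against 3 libraries allow). Of the 10 most abundant features by mean, Yinghong 9 and Qingxin 1 had 1 in common, and of the 100 most abundant, 48. All 10 of the Qingxin 1 list were called lower in Yinghong 9, where they ranked between 1 and 590 and averaged 142 to 5613 FPKM, against 2522 to 12125 FPKM in Qingxin 1. With quantile normalization 9 of the 10 were called. On the deposited scale, 9.70% of all tested features were called lower and 15.6% higher. Of the 906 tested features with a mean of 100 FPKM or more, 182 were called lower and 120 higher. Of the 10 leading features of Yinghong 9, 2 were called higher, 1 lower and 7 in neither direction, and their ranks in Qingxin 1 ran from 1 to 58. With quantile normalization 6 of these were called higher and 0 lower. Each list is made of features that are high in its own variety, so part of this contrast follows from the choice.

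**Figure D2:**
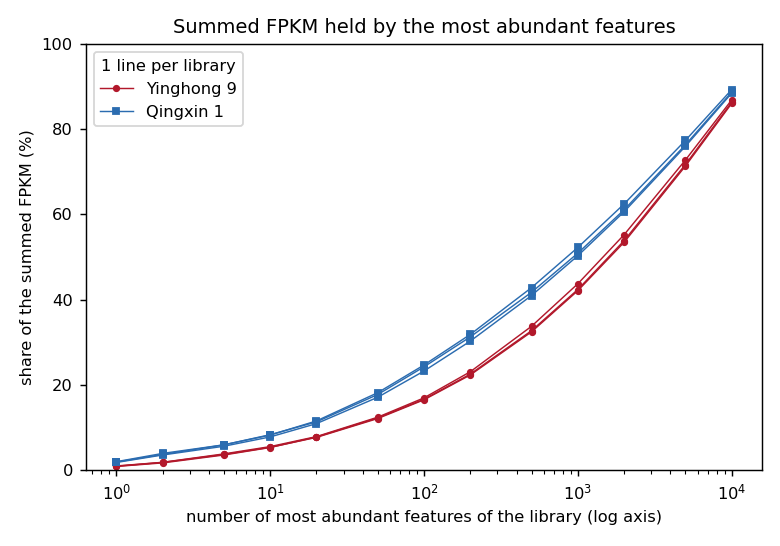
Share of the summed FPKM of a library (vertical axis, percent) held by its most abundant features, against their number (horizontal log axis), 1 line for each of the 3 Yinghong 9 and 3 Qingxin 1 libraries. The Yinghong 9 lines lie below the Qingxin 1 lines at every number plotted, with 16.5% to 16.95% in Yinghong 9 and 23.25% to 24.7% in Qingxin 1 at 100 features.

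The widest gap in FPKM was that of the unannotated locus XLOC_064824. It stood at 993, 977 and 820 FPKM in Yinghong 9, against 11165, 11351 and 12701 FPKM in Qingxin 1. The groups were far apart, with a mean 12.6 times as high in Qingxin 1. On the log2 scale Yinghong 9 differed by -3.66 ± 0.11 (SE; limma, adjusted p = 3.3e-08), and the locus held 0.150% of the summed FPKM in Yinghong 9 and 1.83% in Qingxin 1. It spans 1746 bp on the plus strand of scaffold 825, from 411838 to 413583 (positions here and below are those of the authors' tables, which name no build). Kucha-6 was at the level of Qingxin 1, with 10612, 11136 and 11418 FPKM, and Kucha-11 lay between the varieties, with 2014, 3663 and 2331 FPKM.

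The annotated genes TEA017601.1 and TEA009793.1 came next among the features lower in Yinghong 9. TEA017601.1 ranked first in both varieties and averaged 5613 ± 531 FPKM in Yinghong 9 and 12125 ± 749 FPKM in Qingxin 1 (SD, n = 3 each). Its log2 difference of -1.11 ± 0.10 (SE; limma, adjusted p = 1.85e-05) was just past the fold threshold, and the call was lost with quantile normalization, where the difference was -0.02, and under a test against the fold threshold itself (limma treat). TEA009793.1 averaged 1836 ± 403 FPKM in Yinghong 9 and 6694 ± 388 FPKM in Qingxin 1, a log2 difference of -1.89 ± 0.15 (SE; limma, adjusted p = 5.88e-06). Both Kucha genotypes had means between those of the varieties for each of these genes.

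In the other direction, TEA029619.1, XLOC_063084 and TEA010666.1 had the greatest gains in FPKM. TEA029619.1, an annotated gene, stood at 5536, 5217 and 4955 FPKM in Yinghong 9, against 807, 1126 and 995 FPKM in Qingxin 1. It was the third most abundant feature in Yinghong 9 and number 58 in Qingxin 1. This was a log2 difference of 2.43 ± 0.13 (SE), with an adjusted p of 6.23e-07 (limma). XLOC_063084 averaged 5257 ± 189 FPKM in Yinghong 9 and 1395 ± 19.7 FPKM in Qingxin 1, with a log2 difference of 1.91 ± 0.08 (SE; limma, adjusted p = 2.46e-07). Its genomic span is 65715 bp on the minus strand of scaffold 7703, from 68062 to 133776. No source here states whether this span was the length used for its FPKM. The locus overlaps XLOC_063082 on the plus strand, which was also called higher at 9.15 FPKM in Yinghong 9 and 1.27 FPKM in Qingxin 1. Reads of overlapping loci cannot be told apart unless the strand was used in counting, which no source here states. TEA010666.1 averaged 1260.5 ± 128 FPKM in Yinghong 9 and 233 ± 31.1 FPKM in Qingxin 1, and with 44.4, 38.9 and 30.6 FPKM Kucha-11 lay below both. The same held for TEA029619.1 and XLOC_063084, where Kucha-11 averaged 457 and 1199 FPKM. Quantile normalization, which changes abundant features most, gave log2 differences of 3.03 for TEA029619.1, 2.68 for XLOC_063084 and -2.79 for XLOC_064824.

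The features with the greatest log2 differences were then described one by one. They are the 5 annotated genes and the 5 unannotated loci at the top in each direction, among called features whose libraries did not overlap. Because they were ranked by this contrast, their size here is a description. Their adjusted p ran from 1.33e-09 to 4.49e-05 (limma). The levels in Kucha-6 and Kucha-11, which the ranking did not use, are given beside them. Kucha-6 replicate 2 stood apart from its fellows. In it, 25 features were at or under 0.1 FPKM with at least 5 FPKM in both other Kucha-6 libraries. The like counts were 2 and 6 for Kucha-6 replicates 1 and 3, and 0, 0 and 4 for Kucha-11 replicates 1, 2 and 3. Each library of the conventional varieties had 0 or 1 such features.

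TEA030024.1 led the annotated genes higher in Yinghong 9. It had 115, 116 and 98.7 FPKM in Yinghong 9, against 0.12, 0.33 and 0.08 FPKM in Qingxin 1, a log2 difference of 6.56 ± 0.12 (SE; limma, adjusted p = 3.22e-09). Qingxin 1 was the lowest of the 4 genotypes: Kucha-6 had 19.1 to 22.7 FPKM, and Kucha-11, with 232 to 264 FPKM, exceeded Yinghong 9. TEA017743.1 was also lowest in Qingxin 1, with 129, 131 and 95.2 FPKM in Yinghong 9 and 0.62, 0.66 and 1.03 FPKM in Qingxin 1. Kucha-11 was at 50.2 to 95.9 FPKM and Kucha-6 at 3.26, 19.6 and 8.96 FPKM, a wide spread for replicates.

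TEA002560.1, TEA002875.1 and TEA003607.1 were instead high in Yinghong 9 and low in the other genotypes. TEA002560.1 reached 919, 907 and 865 FPKM in Yinghong 9, rank 36 of all features, against 13.2, 10.5 and 11.8 FPKM in Qingxin 1. Its log2 difference of 6.13 ± 0.10 (SE) had an adjusted p of 2.05e-09 (limma), and the Kucha libraries lay between 16.7 and 41.8 FPKM. It is a strong but graded difference, since every library had at least 10.5 FPKM. TEA003607.1 was closer to on and off: 55.5, 63.2 and 60.4 FPKM in Yinghong 9, 0.09, 0.13 and 0.20 FPKM in Qingxin 1 and at most 0.54 FPKM in any Kucha library. TEA002875.1 had 93.6 to 97.8 FPKM in Yinghong 9 and 0.56 to 0.90 FPKM in Qingxin 1. Its Kucha libraries had 1.79 to 2.29 FPKM, except Kucha-11 replicate 3, which had 16.1 FPKM.

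Among unannotated loci higher in Yinghong 9, XLOC_016425 came first, with 134, 123 and 129 FPKM in Yinghong 9 against 4.54, 0 and 1.21 FPKM in Qingxin 1. The Qingxin 1 libraries spread widely, so the error is large for a leading feature (log2 difference 5.82 ± 0.53 (SE); limma, adjusted p = 4.49e-05). It was 6.45 without Qingxin 1 replicate 1 and 5.21 without Qingxin 1 replicate 2. The locus is on the minus strand of scaffold 1828, from 278323 to 279130, and overlaps XLOC_016415 on the other strand, which was also called higher, at 5.93 FPKM in Yinghong 9 and 0.650 FPKM in Qingxin 1. XLOC_008374, on the plus strand of scaffold 140 from 65799 to 66873, had 74.0, 51.8 and 74.2 FPKM in Yinghong 9 against 0.90, 1.57 and 0.18 FPKM in Qingxin 1. Its neighbour XLOC_008375, 54 bp away on the same strand, was called higher too, at 48.7 FPKM in Yinghong 9 and 1.16 FPKM in Qingxin 1. Kucha-11 matched Yinghong 9 in XLOC_008374, with 53.6 to 77.2 FPKM, and Kucha-6 had 2.89 to 3.31 FPKM.

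XLOC_035236 and XLOC_034897 were high in Yinghong 9 and at or near 0 in the other 3 genotypes. XLOC_035236 averaged 48.6 ± 4.3 FPKM in Yinghong 9 and 0.667 ± 0.550 FPKM in Qingxin 1 (SD, n = 3 each), with at most 0.21 FPKM in any Kucha library. Its position is scaffold 3161, minus strand, from 446698 to 450185. XLOC_034897, on the minus strand of scaffold 3130 from 329211 to 333298, averaged 26.9 ± 2.7 FPKM in Yinghong 9, while 2 Qingxin 1 libraries listed it at 0 and the other at 0.06 FPKM, and no Kucha library exceeded 0.10 FPKM. XLOC_020764, on the minus strand of scaffold 2099 from 2582900 to 2583668, was graded over the genotypes: 50.1 ± 4.0 FPKM in Yinghong 9, 21.0 ± 2.4 in Kucha-11, 9.01 ± 0.63 in Kucha-6 and 0.897 ± 0.359 in Qingxin 1. None of these 4 groups of libraries overlapped another.

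Of the features lower in Yinghong 9, TEA030850.1 had the greatest log2 difference in the comparison. It stood at 0.11, 0 and 0.37 FPKM in Yinghong 9, against 276, 202 and 265 FPKM in Qingxin 1, and all 6 Kucha libraries listed it at 0. Yinghong 9 differed by -7.74 ± 0.15 on the log2 scale (SE; limma, adjusted p = 4.03e-09), and only Qingxin 1 of the 4 genotypes had a library above 1 FPKM. TEA014508.1 was similar, listed at 0 in all 3 Yinghong 9 libraries against 105, 107 and 102 FPKM in Qingxin 1. The Kucha libraries had at most 1.09 FPKM of it.

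TEA002973.1, TEA028023.1 and TEA013165.1 were near 0 in Yinghong 9 and at intermediate levels in at least 1 Kucha genotype. TEA002973.1 had 0.27, 0.35 and 0.25 FPKM in Yinghong 9 against 187, 154 and 175 FPKM in Qingxin 1, a log2 difference of -7.06 ± 0.11 (SE; limma, adjusted p = 1.33e-09). Kucha-11 had 47.8 to 58.2 FPKM and Kucha-6 replicates 1 and 3 had 55.1 and 53.0 FPKM, but Kucha-6 replicate 2 had 3.99 FPKM. TEA028023.1 was listed at 0, 0 and 0.03 FPKM in Yinghong 9 against 124, 101 and 103 FPKM in Qingxin 1. Kucha-6 replicates 1 and 3 had 17.6 and 19.4 FPKM of it, replicate 2 was listed at 0, and Kucha-11 had 7.12 to 12.3 FPKM. TEA013165.1 had at most 0.13 FPKM in Yinghong 9 and 95.0 to 115 FPKM in Qingxin 1, with 27.2, 8.54 and 25.4 FPKM in Kucha-6 and at most 0.38 FPKM in Kucha-11.

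The unannotated locus XLOC_062244 led its class among features lower in Yinghong 9, with 0, 0.14 and 0.06 FPKM in Yinghong 9 against 164, 165 and 157 FPKM in Qingxin 1. Its log2 difference of -7.26 ± 0.10 (SE) had an adjusted p of 1.33e-09 (limma), and no Kucha library exceeded 0.55 FPKM. It lies on the plus strand of scaffold 747, from 1425639 to 1428159. XLOC_057070, on the minus strand of scaffold 6218 from 125038 to 127182, was likewise high in Qingxin 1 alone of the 4 genotypes. It averaged 0.0267 ± 0.0462 FPKM in Yinghong 9 and 34.1 ± 2.7 FPKM in Qingxin 1, and all 6 Kucha libraries listed it at 0.

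XLOC_052540 had the widest spread of the Yinghong 9 libraries among the 10 features lower in that variety, with an SD of 2.25 FPKM. Its values were 0.03, 3.95 and 0.09 FPKM in Yinghong 9 against 189, 168 and 216 FPKM in Qingxin 1 (log2 difference -6.75 ± 0.56 (SE); limma, adjusted p = 3.75e-05). Without Yinghong 9 replicate 2 the log2 difference was -7.50 ± 0.13. It is among 22 features with at least 20 FPKM in every Qingxin 1 library and at most 0.1 FPKM in Yinghong 9 replicates 1 and 3, and among the 5 of these, itself included, that had at least 1 FPKM in replicate 2. XLOC_052540 is on scaffold 528, minus strand, from 957063 to 958244. XLOC_030052, on the plus strand of scaffold 2753 from 247256 to 249405, and XLOC_063489, on the plus strand of scaffold 786 from 401012 to 402130, were listed at 0 in all Yinghong 9 libraries and averaged 57.4 ± 2.2 and 43.7 ± 4.3 FPKM in Qingxin 1. XLOC_063489 was also present in Kucha-6 and Kucha-11, at 24.8 ± 2.2 and 16.1 ± 2.0 FPKM, and its neighbour XLOC_063488, 462 bp away on the same strand, was called lower as well.

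**Figure D3:**
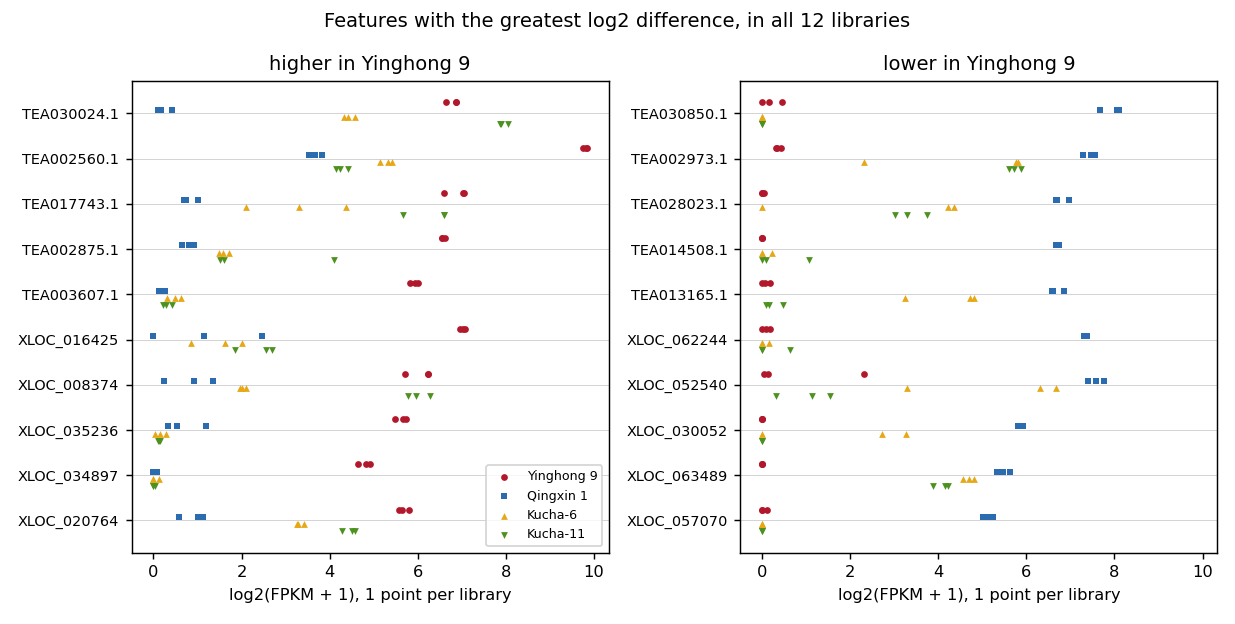
Levels of 10 features higher (left) and 10 lower (right) in Yinghong 9 than in Qingxin 1. Each side holds the leading annotated genes and an equal number of leading unannotated loci, ranked by log2 difference within their class. Some annotated genes left out therefore differed more than unannotated loci shown. Each row shows log2(FPKM + 1) with 1 point per library, for Yinghong 9, Qingxin 1, Kucha-6 and Kucha-11 from top to bottom. Yinghong 9 and Qingxin 1 points are separate in every row because only features without overlap were chosen. The Kucha points lie near either variety, between them or, as in TEA030024.1 for Kucha-11, outside both.

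On/off cases were defined as features listed at 0 in all 3 libraries of one variety with at least 1 FPKM in all 3 of the other. Since the definition used this contrast, their number is a description. Yinghong 9 had 280 such features that were listed at 0 in Qingxin 1, 66 annotated genes and 214 unannotated loci. Qingxin 1 had 263 that were listed at 0 in Yinghong 9, 101 annotated genes and 162 unannotated loci. Unannotated loci made up 76.4% and 61.6% of these sets, against 20.6% of all tested features. The tested features cover all levels and were not matched to these sets. All on/off features were called, as the definition nearly ensures. A listed 0 can stand for a level below the rounding or for a failed estimate, and shallower libraries list more zeros, so no fold is given. No source used here names the genome to which the reads were mapped. How sequence differences between that genome and a variety bear on the zeros was not tested.

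Most on/off features were weakly expressed where they were present. The median of their means was 2.88 FPKM in Yinghong 9 for the first set and 2.97 FPKM in Qingxin 1 for the second. A mean of at least 10 FPKM was reached by 18 features of the Yinghong 9 set and by 20 of the Qingxin 1 set. The highest means were 33.5 FPKM for the Yinghong 9 set and 104.6 FPKM for the Qingxin 1 set. Counted with at least 5 FPKM in all 3 libraries, the sets shrank to 50 and 45 features, and with up to 0.05 FPKM taken as off they grew to 316 and 334, so which variety had more on/off features depended on the definition.

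TEA033572.1 and TEA014984.1 were the annotated genes with the highest means in the Yinghong 9 set. TEA033572.1 had 33.2, 37.1 and 30.2 FPKM in Yinghong 9 and was listed at 0 in Qingxin 1, while Kucha-11 had 87.0 to 96.5 FPKM and Kucha-6 11.4, 0.20 and 8.44 FPKM. TEA014984.1 had 24.9, 25.3 and 23.7 FPKM in Yinghong 9, was listed at 0 in Qingxin 1 and Kucha-11 and had at most 1.79 FPKM in Kucha-6. The leading unannotated loci were XLOC_047104, with 25.1 ± 1.3 FPKM in Yinghong 9, and XLOC_034720, with 24.97 ± 0.14 FPKM (SD, n = 3). XLOC_047104 is on scaffold 435, minus strand, from 1819358 to 1822859, and had 4.92 to 6.59 FPKM in Kucha-11. XLOC_034720, on scaffold 3117, minus strand, from 21688 to 22699, had at most 0.09 FPKM in the Kucha libraries. It overlaps the plus-strand locus XLOC_034719, which had 15.1 FPKM in Yinghong 9 and 0.930 FPKM in Qingxin 1.

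In the Qingxin 1 set, TEA014508.1 and TEA014099.1 led the annotated genes, and XLOC_030052 and XLOC_063489 the unannotated loci. TEA014099.1 was listed at 0 in Yinghong 9 against 62.6, 67.3 and 61.6 FPKM in Qingxin 1. It was on in Kucha-6 replicates 1 and 3, at 8.53 and 11.3 FPKM, listed at 0 in Kucha-6 replicate 2 and at most 0.58 FPKM in Kucha-11. XLOC_030052 had the same pattern in Kucha-6, with 5.62, 0 and 8.65 FPKM, and was listed at 0 in Kucha-11. In both features Kucha-6 replicate 2 was thus listed at 0 like the Yinghong 9 libraries, and unlike its fellows. Kucha-11 was also at or near 0 in both. In TEA033572.1 of the Yinghong 9 set, Kucha-6 replicate 2 was instead near Qingxin 1, at 0.20 FPKM.

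Many on/off features reached 1 FPKM in only 1 of the 4 genotypes. Of the 280 features of the Yinghong 9 set, 161 had under 1 FPKM in all 6 Kucha libraries, and 61 were listed at 0 in all 6. At least 1 FPKM in all 3 libraries was found for 22 in Kucha-6 and for 62 in Kucha-11, with 9 in both. Of the 263 features of the Qingxin 1 set, 104 had under 1 FPKM in all Kucha libraries and 42 were listed at 0 in all. Kucha-6 had 60 and Kucha-11 had 63 of them at 1 FPKM or more in all 3 libraries, with 20 in both. Without Kucha-6 replicate 2 the Kucha-6 counts were 24 for the Yinghong 9 set and 84 for the Qingxin 1 set.

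**Figure D4:**
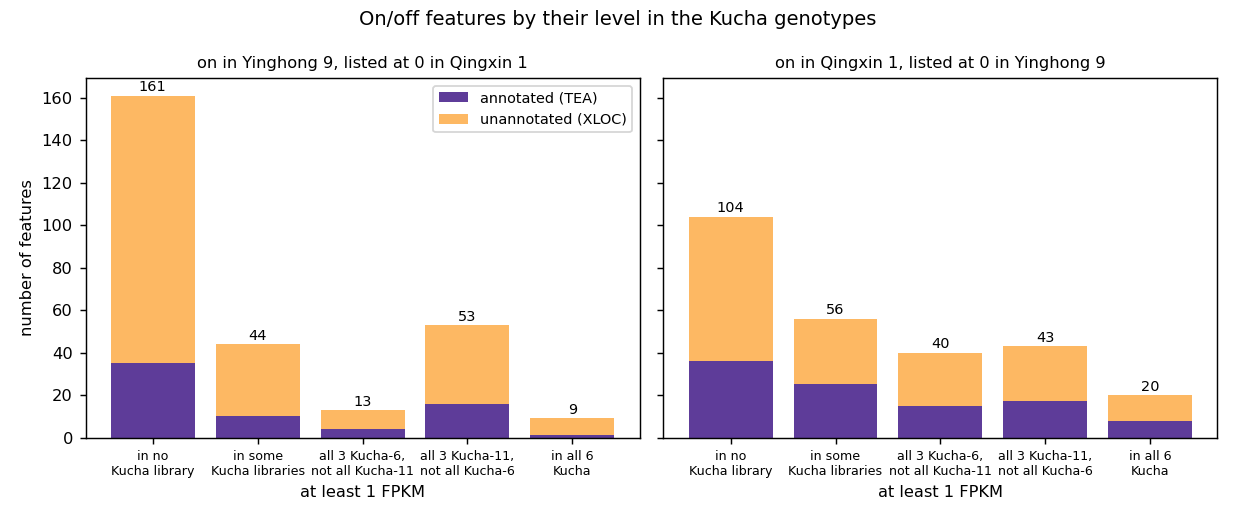
Number of on/off features (vertical axis) by where among the Kucha libraries they reached 1 FPKM, for the 280 features on in Yinghong 9 (left) and the 263 on in Qingxin 1 (right), with annotated genes and unannotated loci stacked. The tallest bars are the 161 and 104 features that reached 1 FPKM in no Kucha library.

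The same was done for all called features, by placing each Kucha mean on the log2 line from Qingxin 1 to Yinghong 9. For the 4209 higher features the Kucha-6 mean was nearer to Yinghong 9 in 927 (22.0%) and the Kucha-11 mean in 1421 (33.8%). For the 2623 lower features these numbers were 1102 (42.0%) and 1334 (50.9%). Without Kucha-6 replicate 2 the Kucha-6 numbers were 966 (23.0%) and 1023 (39.0%). On the deposited scale the Kucha means thus lay nearer to Qingxin 1 in most higher features, and were divided more evenly among lower features. Not all Kucha means lay between the varieties. Among higher features, the Kucha-11 mean was above Yinghong 9 in 526 and below Qingxin 1 in 1166. The Kucha-6 mean was above Yinghong 9 in 239 and below Qingxin 1 in 1216. Among lower features, Kucha-11 was below Yinghong 9 in 544 and above Qingxin 1 in 624. For Kucha-6 these numbers were 321 and 561. The Kucha values were not tested against either variety.

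Unannotated loci carry positions, so their neighbours could be examined. The 5573 tested loci lie on 2216 scaffolds. Among neighbouring tested loci at most 10000 bp apart, 408 pairs were on the same strand and 224 on opposite strands. Of the single tested loci, 38.9% were called and 63.4% of the calls were higher in Yinghong 9, and the pairs were not tested against these shares. Both loci were called in 84 of the same-strand pairs, 1 of them in 144 and neither in 180. Of the 84, 72 had the same sign and 12 had opposite signs. Among opposite-strand pairs, of which 129 overlapped, both were called in 49, 36 with the same sign and 13 with opposite signs. Fragments of 1 transcript unit can be listed as separate loci, so pairs are not independent.

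On/off loci were scattered. The 214 unannotated loci of the Yinghong 9 set lie on 186 scaffolds, of which 161 hold 1 such locus, 22 hold 2 and 3 hold 3. The 162 of the Qingxin 1 set lie on 155 scaffolds, with 149, 5 and 1 in the same classes. On scaffold 3165, XLOC_035303 (1327550 to 1329818) and XLOC_035305 (1330002 to 1337792) lie close together on the minus strand and averaged 3.64 and 2.51 FPKM in Yinghong 9, where Qingxin 1 listed both at 0. On scaffold 90, XLOC_067279 (241590 to 243433) and XLOC_067280 (244409 to 247640) are near each other on the plus strand, listed at 0 in Yinghong 9 against averages of 2.63 and 2.27 FPKM in Qingxin 1. These scaffolds were picked after their values were seen.

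Finally, Yinghong 9 libraries listed more features at detectable levels. At least 1 FPKM was reached by 26084, 25873 and 25877 features in Yinghong 9, against 25051, 24851 and 24798 in Qingxin 1. The excess was 2.65% for annotated genes and 10.9% for unannotated loci, and the libraries of the varieties did not overlap (exact permutation test, two-sided, p = 0.1 for all features, the smallest possible here). After TMM scaling the mean was 25637 ± 52.4 in Yinghong 9 and 25195 ± 112 in Qingxin 1 (SD, n = 3 each), so the difference of 1045 features became 442. The part of library depth in this excess was not tested.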

How the data were processed

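The authors deposited 1 table per library with FPKM values of 2 decimals, per the file headers. TopHat2 2.1.1 and Bowtie2 2.2.8 are listed without their settings, per the submitters' processing notes. No source used here gives the FPKM program, the genome build, the annotation version or the filters. Per the labels' protocols, ribosomal RNA was removed and dUTP was used in the second strand, but the same text names retinas, so it may not describe these libraries. Only unannotated loci carry positions, and their length is the genomic span. Features that reached 1 FPKM in 3 or more of the 6 libraries were tested on log2(FPKM + 1), a pseudocount of 1 that understates changes of low features, with limma 3.58.1 in R 4.3.3 (trended, robust prior) on these 6 libraries. The members, thresholds and rules were chosen with earlier results of these data known. Named were the 5 annotated and 5 unannotated features with the greatest log2 difference in each direction among called features without overlap, the 2 of each class with the highest mean among on/off features, and the 3 called features with the greatest FPKM difference, 31 in all. Loci outside this rule were chosen after their values were seen. The procedure was tested on simulated data. Replicates shared at most 0.669% of values, so none was a copy. The number of each replicate did not pair the varieties. Alternatives were the pseudocount, filter, scaling, fit, block and left-out libraries.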

Additional observations from a re-analysis of the deposited data

How the results depend on the processing

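The test gave 6832 called features, 4209 higher and 2623 lower in Yinghong 9. A filter of 5 FPKM left 17737 features and 4089 calls (2525 higher, 1564 lower), since fewer features were tested. The limma treat test against the fold threshold gave 3493 (2093 higher, 1400 lower), as it asks for more than a passing estimate. Leaving out 1 library gave 6796 to 6956 calls, 4187 to 4343 higher and 2586 to 2673 lower, and a class ratio of 1.77 to 1.81. A pseudocount of 0.1 gave 8504 calls and no filter 7159. The fit on all 12 libraries gave 6821 and the plain prior 6829.

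Replicate numbers are shared by the varieties but did not pair them. Deviations of same-numbered libraries correlated at 0.033, -0.097 and -0.092, and the replicate block gave 6832 calls, 6827 of them among those without it.

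On/off features numbered 280 in the Yinghong 9 set and 263 in the Qingxin 1 set, 50 and 45 with at least 5 FPKM as on, 302 to 373 and 296 to 347 without 1 library. The excess of 1045 features of at least 1 FPKM in Yinghong 9 became 844 at 0.1 FPKM and 442 after TMM scaling, and it ran from 975 to 1120 without 1 library. The cause was not tested. The difference of -2.72 percentage points in the share of the 10 most abundant features was -7.36 for 100 features and -2.97 for annotated genes, and -2.87 to -2.61 without 1 library. Of 465 repeats over the 31 named features and 15 alternatives, 463 kept direction and call and 0 reversed. The call of TEA017601.1 was lost with quantile normalization and under limma treat. Depth limits most the features near 0, and no interval from counts can be given.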

Other observations

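Single libraries of Qingxin 1 and Yinghong 9 differed in features that their fellows lacked. Of 12 features with at least 20 FPKM in every Yinghong 9 library and at most 0.1 FPKM in Qingxin 1 replicates 2 and 3, 3 had at least 1 FPKM in Qingxin 1 replicate 1, the highest at 10.6 FPKM. The like counts were 1 of 14 for Yinghong 9 replicate 1 and 0 of 14 for replicate 3, and 0 of 8 and 0 of 10 for Qingxin 1 replicates 2 and 3. Of the 25 features that were off in Kucha-6 replicate 2 and at 5 FPKM or more in its fellows, 15 averaged at least 5 FPKM in Qingxin 1 and 9 in Yinghong 9.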
